A study of Drosophila melanogaster with 2 samples.

Results

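The genes described here are 10 genes of Drosophila melanogaster that encode insulator and promoter factors, of 13945 protein-coding genes on the 6 chromosome arms. They are Chro, BEAF-32, CTCF, Cp190, mod(mdg4), su(Hw), Dref, M1BP, Trl and pzg, and they were chosen by name with earlier results of these data known. For each gene, summits of binding by Sloppy paired 2 (Slp2), a forkhead transcription factor, were collected in the gene body or within 5 kb of it, with the signal value of the peak, its rank and its distance from the nearest of the gene's own transcription start sites. Chromatin immunoprecipitation and sequencing (ChIP-seq) had been applied to whole embryos of mixed sex, collected from 0 to 24 h. The embryos carried a transgene for Slp2 with green fluorescent protein at its C terminus (strain 9T-GFP), and an antibody against that protein was used. There was 1 group with 2 biological replicates, numbered 2 and 3, and every stage and tissue of the embryo was pooled in each. A control data set is named with the deposited lists, but no values from it were available to set beside these. Signal from the line or the antibody alone was therefore not measured here.

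Insulator proteins bind chromatin domain borders and gene promoters, where they limit contacts between enhancers and promoters. In flies BEAF-32, CTCF and su(Hw) read DNA sequence directly, whereas Cp190 and mod(mdg4) are recruited by such factors through protein contacts. Chro (Chromator) and pzg (putzig, also called Z4) are chromatin proteins of the interbands of polytene chromosomes, the open stretches that hold promoters of broadly expressed genes. Dref, M1BP and Trl (GAGA factor) bind promoter elements, and Slp2 is best known as a segmentation factor of the pair-rule class.

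The peaks near these genes are introduced first by their DNA. In the lines below, all on the dm6 build and written 5′ to 3′ on the gene's own strand, capitals mark the core of the BEAF-32 site (CGATA, or TATCG where it lies on the opposite strand) or the complete DNA replication-related element (DRE, TATCGATA), which is the site of Dref and holds CGATA on both strands. They are shown because 5 of the 8 members with a peak at their own promoter had CGATA within 100 bp of the summit. So did 38.3% of the 1631 peaks of the thresholded list described below that lie within 500 bp of any start site. The other reason is that a complete DRE stood at a start site of CTCF, Cp190 and mod(mdg4), as at 8.49% of all genes.
Chro, chr3L:22878880-22878908, minus strand: ttagtttaaagcTATCGacaggcaataca
Dref, chr2L:9967230-9967312, minus strand: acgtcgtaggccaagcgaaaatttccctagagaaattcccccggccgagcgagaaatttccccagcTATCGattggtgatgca
pzg, chr3L:21285908-21285936, plus strand: aaataattacgtTATCGtaatgaacggca
CTCF, chr3L:7356716-7356745, minus strand: accaatcgaacTATCGATAgctggcggtac
Cp190, chr3R:15275227-15275256, minus strand: TATCGcatggcTATCGATAgctgccgagcg
Cp190, second start site, chr3R:15274793-15274822, minus strand: acacaggcgtaTATCGATAtttgcgagttg
mod(mdg4), chr3R:21377437-21377466, minus strand: atattttaagcTATCGATAtattgtcactt

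A second set shows matches to the forkhead class, to which Slp2 belongs (TGTTTAC or TATTTAC, or their reverse complements, in capitals). The Trl line is the whole 201-bp window around the summit of the strongest peak in that gene.
Trl, chr3L:14759395-14759595, minus strand: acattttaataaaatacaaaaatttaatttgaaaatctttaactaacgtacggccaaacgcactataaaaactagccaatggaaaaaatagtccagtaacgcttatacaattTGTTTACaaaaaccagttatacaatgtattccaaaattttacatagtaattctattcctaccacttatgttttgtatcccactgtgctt
mod(mdg4), chr3R:21365392-21365420, minus strand: atttagtaataTGTTTACttgagtatagt
pzg, chr3L:21285895-21285923, plus strand: tattatttcaaGTAAATAattacgttatc
Cp190, distal summit, chr3R:15278109-15278137, minus strand: cctGTAAATAatCGATAagtgcatcggta
In the last line CGATA is also in capitals and stands close to the forkhead match.

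The authors deposited a relaxed list of 30000 peaks for each replicate, a relaxed pooled list of 28637 peaks called on both, and a list of 3203 peaks that passed a limit on the irreproducible discovery rate (IDR), which is estimated from how peaks rank in each replicate. The signal value is the authors' score, whose scale no source used here states, and a higher value is a stronger peak. The IDR list was identical to the top 3203 pooled peaks by signal, with values from 65.41 upwards and a median of 102.1. The 3203 strongest peaks of each replicate reached down to 37.75 in replicate 2 and 30.39 in replicate 3, with medians of 55.76 and 48.45. The number of reads is unknown, and each peak has 1 value per list, so no standard deviation or interval is given. The spread is shown by both replicate values, and over the 3148 IDR peaks that had counterparts no more than 200 bp away in both replicates, the log2 ratio of replicate 2 to replicate 3 had a median of 0.15 and an SD of 0.64.

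Of the 10 genes, 9 had an IDR summit in the body or within 5 kb, whereas 39.4% of all protein-coding genes did. An IDR summit lay within 500 bp of an own start site in 8 of the 10, compared with 15.2% of all genes. Because the genes were chosen with these summits known, both counts are descriptions. Among the equally long lists of strongest peaks, 8 of 10 members had such a summit in replicate 2 (14.2% of all genes) and 8 of 10 in replicate 3 (15.6%). In the relaxed pooled list all 10 members had one, but so did 51.4% of all genes. Only 5 members, Chro, BEAF-32, CTCF, Cp190 and Trl, were the gene whose start was nearest to an IDR summit, beside 17.1% of all genes. At the promoters of Dref, M1BP and pzg a neighbour's start was nearer to the pooled summit, and 6 of the 10 members have a neighbour transcribed away from them with starts 500 bp apart or less. Such a pair was also present for 27.4% of all genes and for 56.3% of the 2120 genes with an IDR summit at their own promoter. A peak between 2 such starts cannot be assigned to either gene.

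**Figure D1:**
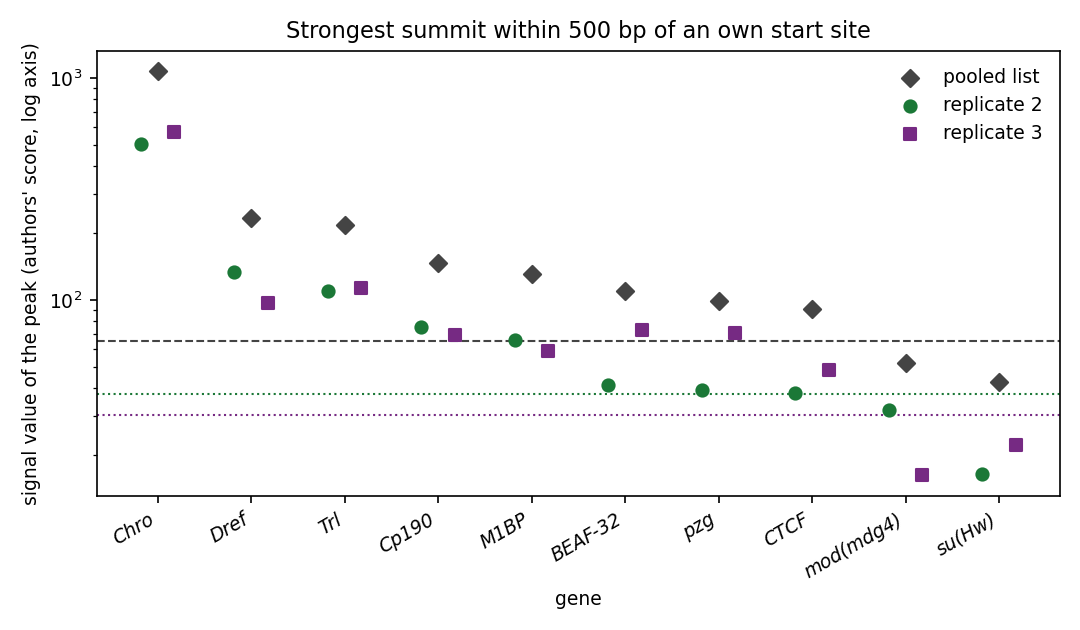
Signal value (authors' score, log axis) of the strongest summit within 500 bp of an own start site for each of the 10 genes, in the pooled list (diamonds), replicate 2 (circles) and replicate 3 (squares). The dashed line is the lowest IDR value, 65.41, and the dotted lines are the lowest of the 3203 strongest values of replicate 2 (37.75) and replicate 3 (30.39). Chro stands above the rest in all 3 lists, and each value of mod(mdg4) and su(Hw) lies under the line of its own list.

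Chro encodes a chromodomain protein that binds together with pzg and BEAF-32 at interbands and domain borders. Its promoter held the fifth strongest peak of the pooled list and the fourth strongest own-promoter peak of any of the 2120 genes that have one. The gene (FBgn0044324) lies at chr3L:22873702-22878984 on the minus strand and has 3 start sites. The peak, chr3L:22878702-22879105, had a pooled signal value of 1074.34, with 501.484 in replicate 2 and 571.356 in replicate 3. It ranked 7 in replicate 2 and 5 in replicate 3, and its pooled value was 10.5 times the median of the IDR list. The summit was in the 5′ UTR, 107 bp downstream of the start, and the summits of the replicates were 2 bp apart. Ssl1, which encodes a subunit of the general transcription factor TFIIH, starts 105 bp from Chro in the opposite direction, so the same peak is also its promoter peak. The CGATA match stands 17 bp from the summit. In the relaxed pooled list the window held 6 summits in all, and this was the only one in the IDR list.

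The promoters closest to that of Chro, by the distance of log2 ranks in the 2 replicates, were those of Ssl1 with the same peak, ph-p, CG1888, mRpL41 and Art3. The value for ph-p, a Polycomb group gene, was 989.784 in the pooled list, 463.498 in replicate 2 and 529.382 in replicate 3. Values for the other 3 ran from 898.026 to 930.755 in the pooled list. Art3 shares its peak with mRpS10. None of these is among the 10 genes.

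The gene for BEAF-32, the boundary element-associated factor, had its IDR summit 30 bp upstream of the gene (FBgn0015602, chr2R:14770469-14772630, plus strand). The pooled value was 109.64, with 41.2222 in replicate 2 and 72.9399 in replicate 3. The peak was thus 1.769 times as high in replicate 3, where it ranked 788, as in replicate 2, where it ranked 2755. On the log2 scale the ratio was -0.82, and 5.43% of IDR peaks had a lower one. The other peaks of the window were under the IDR limit, the strongest at 60.6125 in the pooled list (rank 3590). In replicate 3 a further summit, 4 bp upstream of another own start, was among the 3203 strongest, with a value of 32.7127 (rank 2884), and the nearest such summit of replicate 2, at 34.2515 (rank 3769), was not. The IDR summit window held 2 forkhead matches, centred 21 bp upstream and 19 bp downstream of the summit, and no CGATA.

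CTCF encodes the fly orthologue of the vertebrate zinc finger insulator protein. Its gene (FBgn0035769, chr3L:7353578-7356713, minus strand) had 1 IDR summit, in the 5′ UTR 75 bp downstream of the start. Among the strongest own-promoter IDR peaks of the 8 genes that have one, this was the weakest. Its values were 90.7375 in the pooled list, 38.0682 in replicate 2 and 48.2363 in replicate 3. In replicate 3, but not in replicate 2, the 3203 strongest peaks included another summit of the window, 1225 bp upstream of the start, with a value of 35.933 (rank 2526). The own-promoter value in replicate 2 was just inside the 3203 strongest, at rank 3155, and the rank in replicate 3 was 1616. The summits of the replicates differed by 2 bp. The complete DRE printed above is centred 92.5 bp from the summit and 18 bp upstream of the start.

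Cp190 encodes a BTB domain protein that serves as a shared partner of several insulator proteins. The gene (FBgn0000283, chr3R:15270432-15275241, minus strand) had an IDR summit 100 bp upstream of its start, with values of 146.512 pooled, 75.8282 in replicate 2 and 69.1601 in replicate 3. These ranked 854 and 871 in the replicates, although the summits were 59 bp apart. CG4338 starts 281 bp away in the opposite direction, and its start was the nearest to the summit of replicate 2, at 123 bp. A second IDR summit, 2957 bp upstream, is 22 bp from a start of Tm1, the gene for a tropomyosin. That peak was weaker and less even, at 72.0027 pooled, 45.3954 in replicate 2 and 25.3896 in replicate 3, and it ranked 4246 in replicate 3, outside the 3203 strongest.

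The gene for mod(mdg4), whose BTB domain proteins work with su(Hw) at the gypsy insulator, had no IDR summit within 500 bp of its start. Its transcripts are known to be joined by trans-splicing from separate units, and the locus (FBgn0002781, chr3R:21350846-21377401, minus strand) holds 23 genes annotated as pre-mod(mdg4), which begin at 7 start sites. The strongest peak of the window lay in an intron, 11931 bp from the start of mod(mdg4) and 18 bp from a start of pre-mod(mdg4)-E. Its values were 203.599 pooled, 95.7907 in replicate 2 and 107.793 in replicate 3, with ranks 537 and 362. This peak was within 500 bp of 3 of the 7 start sites, and no other IDR peak was near any of them. At the start of mod(mdg4) itself, from which 22 transcripts begin, the pooled list held a peak of 52.195 at 10 bp, below the IDR limit. That peak was at 31.7714 in replicate 2 and 16.2249 in replicate 3, with ranks of 4325 and 11726. The other IDR summit of the window, 1422 bp upstream, is 154 bp from a start of tin (tinman), a homeobox gene of the heart lineage, and had values of 72.4966 pooled, 46.6186 in replicate 2 and 22.2934 in replicate 3. The peak near tin and the peak at the start of mod(mdg4) had lower values in replicate 3 than in replicate 2, while the intronic peak was near equal in both. Of all matched IDR peaks, 38.2% were higher in replicate 3.

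The gene for su(Hw), the zinc finger protein that binds the gypsy insulator, was the only one of the 10 with no IDR summit in its window. The gene (FBgn0003567) lies at chr3R:14304455-14308589 on the minus strand. The strongest pooled peak, at 58.8333 (rank 3755), was 2568 bp upstream of the gene and 795 bp from a start of CG31321. Within 500 bp of the start the strongest pooled summit had a value of 42.8657, at 403 bp upstream and 97 bp from a start of Polr2I, which encodes a subunit of RNA polymerase II. In replicate 3 the strongest summit within 500 bp was 365 bp upstream, with a value of 22.2832. In replicate 2 the strongest was a different one, 312 bp downstream, at 16.3734, and the summit 402 bp upstream had 16.1627. In replicate 3, 1 summit of the window was among the 3203 strongest, and in replicate 2 none was.

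**Figure D2:**
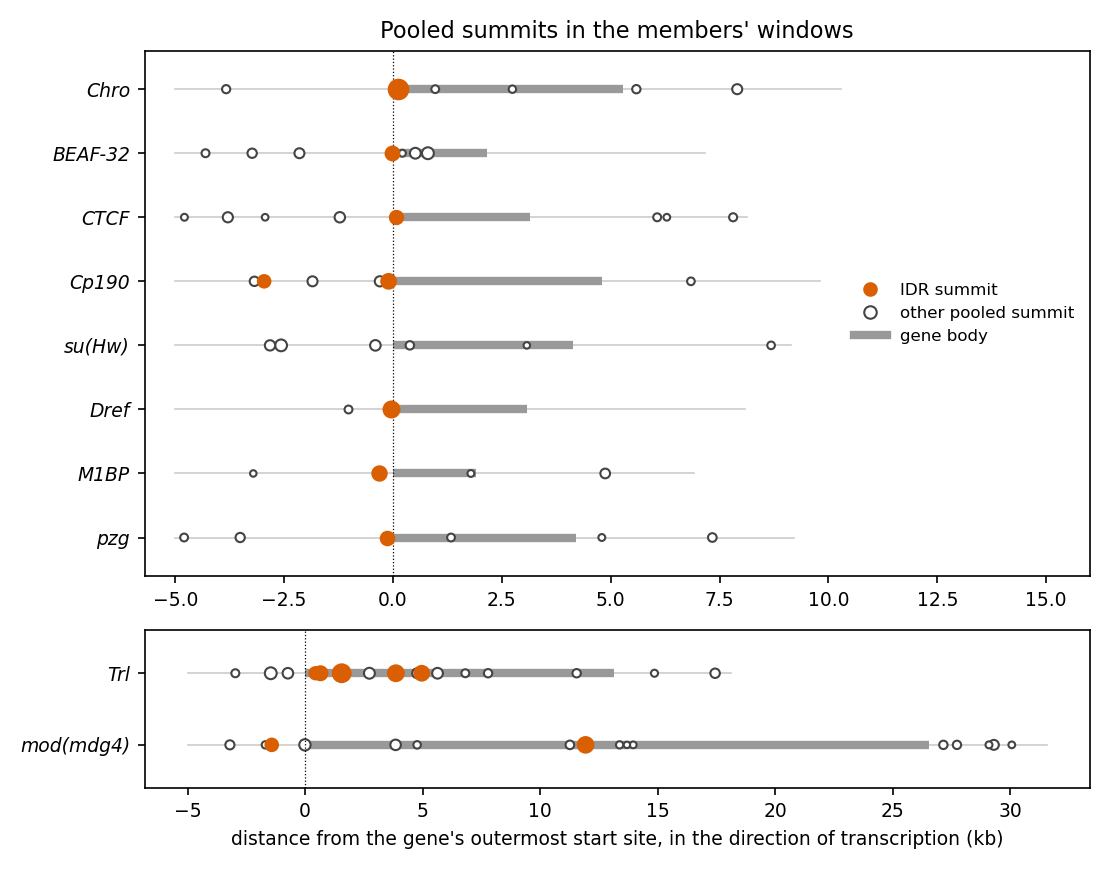
Positions of all pooled summits in the windows of the 10 genes, as distance in kb from each gene's outermost start site in the direction of transcription. Grey bars are gene bodies, thin lines the windows with 5 kb on each side, filled points the 15 IDR summits and open points the other pooled summits, with larger points for higher signal values. Filled points stand at the start in 8 genes, are most frequent in Trl, and are missing at su(Hw).

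Dref encodes the DNA replication-related element factor, an activator of genes for replication and growth. Its promoter held the second strongest own-promoter peak of the 8, at 234.693 pooled, 133.719 in replicate 2 and 96.4346 in replicate 3, with ranks of 261 and 455. The gene (FBgn0015664) lies at chr2L:9964147-9967229 on the minus strand, and the summit was 50 bp upstream of its start. RpL13, which encodes a ribosomal protein, starts 84 bp from Dref in the opposite direction, and its start was nearer to the pooled summit and to that of replicate 2, at 34 bp. In replicate 3 the summit was 15 bp from the start of Dref, which was then the nearest. The log2 ratio of the replicates was 0.47, the highest of the 8. The window held only 2 summits in the relaxed pooled list, the fewest of the 10 genes. The CGATA match in the line above is centred 35 bp from the summit and 15 bp upstream of the start.

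M1BP encodes the zinc finger protein that binds Motif 1 at promoters with paused RNA polymerase II. Its IDR summit was 310 bp upstream of the gene (FBgn0037621, chr3R:8729790-8731698, minus strand) but 83 bp from a start of CG8202, which begins 393 bp from M1BP in the opposite direction. The values were 130.953 pooled, 66.0484 in replicate 2 and 58.7193 in replicate 3. The ranks of 1159 and 1168 were nearly the same, and the summits of the replicates were 10 bp apart. None of the searched motifs had a match within 100 bp of that summit.

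Trl encodes GAGA factor, which binds GAGAG repeats and opens promoter chromatin. The gene (FBgn0013263, chr3L:14747929-14761049, minus strand) has 4 start sites and held 5 IDR summits, in a window of 23121 bp. Of all genes, 0.538% (75) had 5 or more in their windows, with no allowance for window length. The strongest was in an intron, with values of 486.735 pooled, 253.067 in replicate 2 and 232.734 in replicate 3, and ranks of 50 and 59. Its summit was 1533 bp from the nearest start of Trl and equally far from a start of CG42507. A second summit, in the 5′ UTR 145 bp downstream of an own start, had values of 218.373 pooled, 109.502 in replicate 2 and 113.522 in replicate 3. The replicate summits of that peak were 103 bp apart, and the peak was 141 bp wide, where the median IDR peak was 404 bp wide. Another summit, in an intron 1248 bp downstream of an own start, had values of 147.144 pooled, 55.0052 in replicate 2 and 84.1561 in replicate 3.

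The last 2 IDR summits of Trl belong to overlapping peaks near the outermost start. The one at 652 bp had a pooled value of 113.294, with 55.2544 in replicate 2 and 50.5179 in replicate 3. The one at 441 bp had 67.6333, the value closest above the IDR limit in any member's window, and it was outside the 3203 strongest peaks of both replicates. The nearest values under the limit were 60.6125 at BEAF-32, 60.4865 at Trl and 58.8333 at su(Hw). The Trl window held 16 pooled summits in the relaxed list, the same number as the window of mod(mdg4), which is longer.

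The gene for pzg, a zinc finger protein that works with Dref and with nucleosome remodellers, had its IDR summit 138 bp upstream of its start (FBgn0259785, chr3L:21286099-21290310, plus strand). The summit was 1 bp from a start of CG12974, which begins 137 bp from pzg in the opposite direction. The values were 99.285 pooled, 39.2743 in replicate 2 and 70.9465 in replicate 3. This peak, like that of BEAF-32, was higher in replicate 3, by 1.806 times, and 4.92% of IDR peaks had a lower ratio of replicate 2 to replicate 3. The window held a CGATA match 39 bp upstream and a forkhead match 52 bp upstream of the summit.

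Across the strongest own-promoter peaks of the 8 genes the order was Chro, Dref, Trl, Cp190, M1BP, BEAF-32, pzg and CTCF in the pooled list. It was the same in replicate 2. In replicate 3 Trl stood above Dref, and BEAF-32 and pzg stood above Cp190 and M1BP. Chro was above the other genes in both replicates, with no overlap of its range. CTCF was the lowest of the 8 in both. Dref and Trl changed places between the replicates, as did Cp190 and M1BP with BEAF-32 and pzg, so their order is not the same in both. The median pooled value of the 8 was 138.7, beside 107.1 over the 2120 genes with an own-promoter IDR summit, and 6 of the 8 were above that median. The log2 ratio of replicate 2 to replicate 3 had a median of -0.12 over the 8, with a range from -0.85 to 0.47 that lies within the middle 95% of all IDR peaks (-1.07 to 1.57). The value was higher in replicate 3 for 5 of the 8, beside 38.2% of IDR peaks. With each value taken relative to the median of its list, it was higher in replicate 3 for 7 of the 8, all but Dref, beside 54.0% of IDR peaks.

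**Figure D3:**
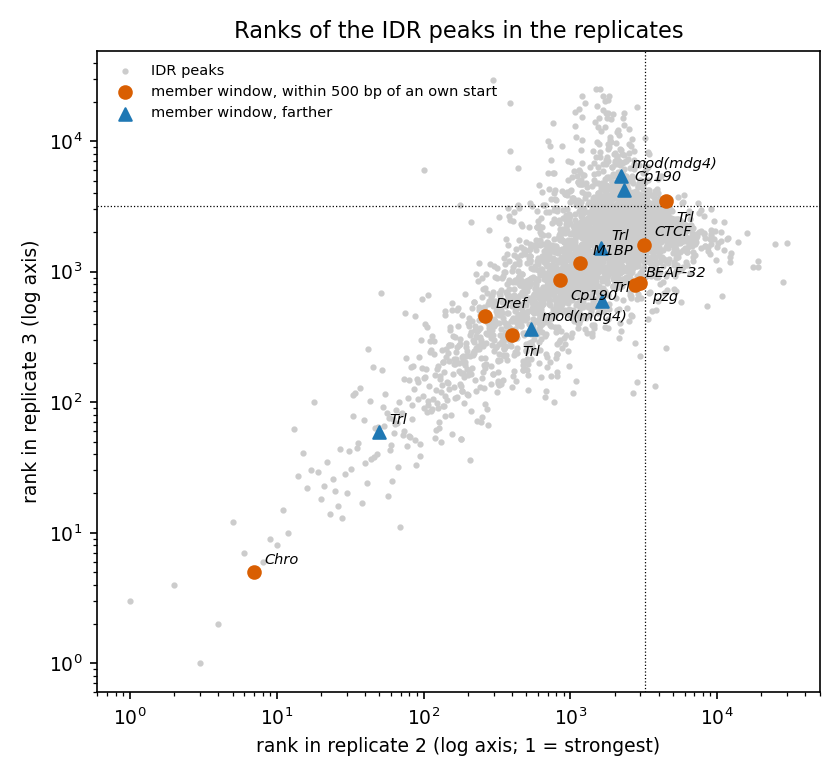
Rank of each IDR peak in replicate 2 against its rank in replicate 3 (log axes, 1 is the strongest), for the 3148 IDR peaks found in both (grey) and the 15 in the windows of the 10 genes, within 500 bp of an own start (circles) or farther (triangles). Dotted lines mark rank 3203. Chro, at 7 and 5, and the intronic Trl peak, at 50 and 59, are strong in both replicates, and 3 of the 15 lie outside rank 3203 in replicate 3.

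Of the 15 IDR summits in the windows, 14 were among the 3203 strongest of replicate 2 when matched within 200 bp, 12 of replicate 3, and 12 of both. The same shares over all IDR peaks were not counted. Because the IDR is estimated from ranks in both replicates, these counts are descriptions and do not measure reproducibility particular to these genes. The 3 outside the strongest of replicate 3 were the peaks near Tm1 and tin and the weakest Trl peak. The distance between the summits of the replicates was 31 bp in the median over all IDR peaks, with a 90th percentile of 103 bp. It ran from 2 bp at Chro and CTCF to 103 bp at Trl among the strongest own-promoter peaks. The GC content of the 201-bp summit windows ran from 27.9% to 46.8%, and the IDR median was 36.3%.

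Matches to 7 motifs were counted on both strands within 100 bp of the summits, where the whole motif had to lie inside that window. CGATA stood at 5 of the members' 8 strongest own-promoter summits (Chro, CTCF, Cp190, Dref and pzg), at 29.8% of all IDR summits and at 38.3% of the 1631 IDR summits within 500 bp of any start. The complete DRE stood at 1 of the 8, CTCF, beside 4.09% and 7.73% in the same 2 sets. A DRE at Cp190, centred 99.5 bp from the summit, ran past the edge of the window and was not counted. A forkhead match stood at BEAF-32 and pzg, so at 2 of 8, beside 15.4% and 15.0%. Over all 15 summits, CGATA matched at 7 and the forkhead motif at 5, among them the strongest Trl peak, where the match is 15 bp from the summit.

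The other 4 motifs had no match at any of the 15 summits. The core of Motif 1 (GGTCACAC), the site of M1BP, stood at 2.37% of IDR summits, and GAGAG at 23.7%. A core of the CTCF site (AGGNGGCGC) stood at 1.59%, and a core of the su(Hw) site (GCATACTTT) at 0.749%. A missing match says only that these letters are not in the window.

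**Figure D4:**
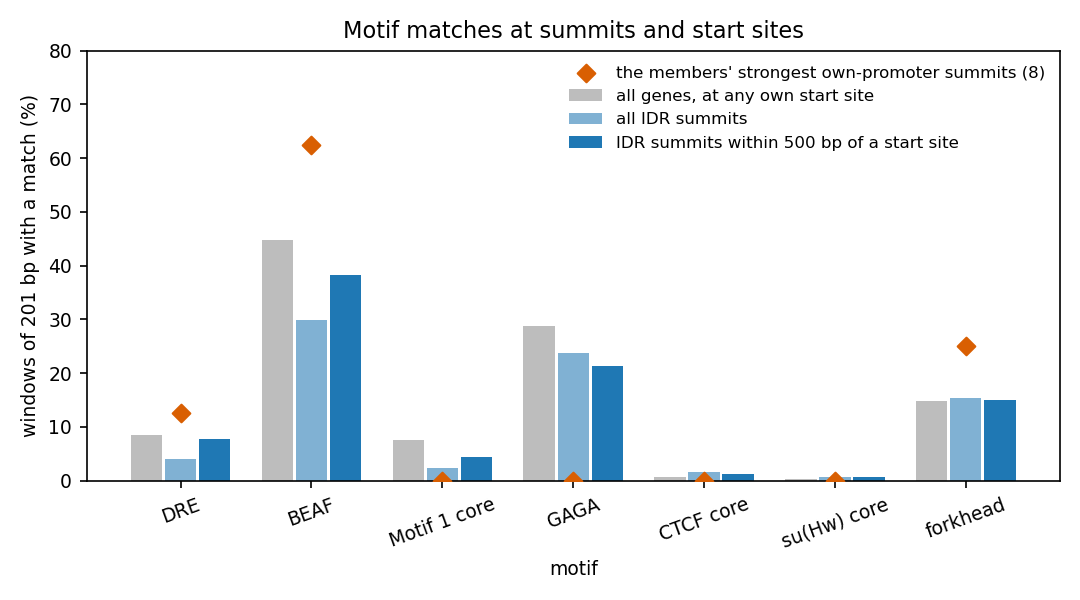
Share of 201-bp windows (%) with a match to each of 7 motifs. Bars show all 13945 genes with a match at any own start (grey), all 3203 IDR summits (light blue) and the 1631 IDR summits within 500 bp of a start (dark blue), and diamonds show the members' 8 strongest own-promoter summits. CGATA (labelled BEAF) has the tallest bars, 44.7%, 29.8% and 38.3%, and its diamond stands for 5 of 8 summits.

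At the start sites themselves, within 100 bp and whatever their peaks, CGATA stood at 7 of the 10 genes and at 44.7% of all genes. The DRE stood at 3 of the 10, CTCF, Cp190 and mod(mdg4), and at 8.49% of all genes. At Cp190 it was centred 1 bp upstream of the outermost start and 18 bp upstream of the second, and at mod(mdg4) 51 bp upstream. GAGAG stood at Dref and Trl, beside 28.7% of all genes. At Trl there were 10 overlapping or neighbouring matches from 45 to 85 bp upstream of the start whose IDR summit is 145 bp downstream. The Motif 1 core stood at su(Hw), 8 bp downstream of its start, beside 7.56% of all genes. A forkhead match was present at BEAF-32, beside 14.8% of all genes, and no start site of the 10 had the CTCF or su(Hw) core, which stood at 0.567% and 0.373% of all genes.

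Other genes of the same kind were counted from 2 lists. Of 26 architectural protein genes other than the 10, 14 (53.8%) had an IDR summit in the body or within 5 kb and 10 (38.5%) at an own promoter, with a median own-promoter value of 83.25. The strongest were Phs at 143.851, shep at 128.178, row at 112.3, Cap-H2 at 110.156 and l(3)mbt at 84.9365 in the pooled list. At Cap-H2, a condensin subunit gene, the nearest start was that of MED7, and at l(3)mbt that of CG5934. Of 26 genes for promoter and remodelling factors, 23 (88.5%) had an IDR summit in the body or within 5 kb and 10 (38.5%) at an own promoter, with a median of 89.77.

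In that second list the strongest pooled own-promoter values were 294.734 at Nelf-E, which encodes a subunit of a pausing factor, 254.455 at Ino80, a nucleosome remodeller gene, and 241.011 at lola. Nelf-E had 148.72 in replicate 2 and 153.232 in replicate 3, and a start of RpL14 was nearer to its summit, at 46 bp. Ino80 had 112.5 and 137.782, and lola had 157.235 and 105.834. TfIIB at 111.44, with Bug22 nearer, and psq at 95.9123 followed. The pooled own-promoter value of Chro was thus above that of every gene with one in both lists. The own-promoter values of Dref and Trl were within their range.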

How the data were processed

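ChIP-seq of 2 biological replicates, numbered per the labels, formed 1 group. The deposited peak lists, per the readme files, comprise a relaxed list for each replicate, a relaxed pooled list and an IDR list. The authors' signal value is a score, and the deposited −log10 q value, which was tied at 3.69 for 2452 IDR peaks, was not used for ranks. Aligner, peak caller, IDR threshold and read number are not given in the sources used here, so depth is unknown. Lists on dm3 were not used, and no position was converted.

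Summits were set against Ensembl release 115 gene models, and sequence was read from the Release 6 assembly (RefSeq), with Python 3.11.15, pandas 2.3.3, numpy 2.4.6 and matplotlib 3.10.9. The steps were tested on simulated data. Members and lists were chosen with earlier results of these data known, so no test was made. Named genes were the members, the nearest gene of each IDR summit, the 5 strongest of each further list and the 5 promoters most like that of Chro. Neighbours sharing a peak or a start region, and genes beside peaks under the IDR limit, were named after their values were seen. Of 27 architectural symbols, SA had no match, and Phs was matched from an older symbol.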

Additional observations from a re-analysis of the deposited data

How the results depend on the processing

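No paired analysis was possible because there is 1 group. Of 153 values recomputed under other choices, 113 stayed near the reported value and 40 moved, and 29 of the 40 were counts of summits for single genes. Counting the gene body alone gave 4 of 10 genes with an IDR summit, against 9. Promoter limits of 250 and 1000 bp gave 7 and 8 genes with an own-promoter summit, against 8. In the relaxed pooled list, of 28637 peaks rather than 3203, 8 genes were nearest to a summit, against 5. The share over all genes was not counted for other windows, other promoter limits or other nearest counts. It was also not counted for the window counts of single replicates or for the stronger IDR peaks alone. The median position of the own-promoter peaks was the top 28.72% of the IDR list, over 8 genes. It was the top 4.243% of the longer pooled list, over all 10 genes. With only the stronger IDR peaks, above the median, kept, 6 genes had such a peak. Their median position was 18.45%, still counted in the full IDR list. These positions cover different genes or list lengths, so they do not show a change of the same peaks. With 1 replicate left out, the genes with a summit in the window numbered 9 to 10, those with one at an own promoter 8 to 8, those nearest to a summit 4 to 6, and the median position ran from 25.16% to 31.42%. Taken relative to each list's median, the median log2 ratio of the replicates was -0.32, and the ratios of Cp190 and M1BP, both near 0, changed sign. The motif counts depend on the window. Shares over all IDR summits were not counted for the windows of 50 and 200 bp or around replicate summits, so those counts have no comparison. For the DRE, 1 of 8 summits became 0 within 50 bp, 3 within 200 bp, and 3 with 1 mismatch, a form present at 15.0% of IDR summits. CGATA fell from 5 to 3 summits within 50 bp and the forkhead motif from 2 to 1. GAGAG rose from 0 to 2 within 200 bp and to 1 around the summits of replicate 3. Unknown depth, no control values and 2 replicates limit every value, and a score without a stated scale gives no measure of occupancy.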
